A study of Mus musculus with 2 samples.

Results

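The BAF (SWI/SNF) and PBAF subunit genes are 30 mouse genes that encode the subunits of the canonical BAF, PBAF and non-canonical BAF remodelling complexes. They were taken by name from the RefSeq annotation of mm10, in which all 30 were found among 21631 protein-coding genes on chromosomes 1 to 19 and X, and each was searched for Brg1 islands within 5 kb of the gene and over 5 and up to 50 kb from it. An island is a stretch of the genome in which the authors' caller found more ChIP reads than it required. Brg1 binding was profiled by ChIP-seq in primary medulloblastoma of mice carrying CAG-CreER and Rosa26-SmoM2, in which the tumours formed spontaneously. SmoM2 is an activated form of Smoothened, the Hedgehog signal transducer, and the CAG promoter that drives CreER is active in many cell types rather than in the cerebellum alone. The J1 antibody used binds Brm as well as Brg1, per the labels. There was 1 ChIP library and 1 input library of the same genotype, and the input is not analysed here. The labels do not state how many tumours were pooled.

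BAF complexes use ATP to move or evict nucleosomes, and each holds an ATPase, a shared core and subunits that mark the type of complex. In the developing nervous system several subunits are exchanged as progenitors become neurons: Actl6a gives way to Actl6b, Phf10 and Dpf2 to Dpf1 and Dpf3, and Ss18 to Ss18l1. Shh-type medulloblastoma arises from granule neuron progenitors of the cerebellum. The islands were therefore examined at the genes of the complex's own subunits, including those that are exchanged.

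The list held 5727 islands with a median of 68 reads and a median width of 2200 bp, and 472238 reads in all, while total sequencing depth is unknown. A lone ChIP library gives no estimate of error between animals, and intervals on reads are exact Poisson 95% intervals that cover counting error only. Regions below the caller's threshold are absent from the list, so a gene with no island is not shown to lack Brg1. All 8 of the granule progenitor and tumour genes checked (Atoh1, Barhl1, Zic1, Meis1, Gli1, Ptch1, Mycn and Ccnd1) had an island within 5 kb. Of 10 markers of oligodendrocytes, microglia and endothelium, 2 did (20%), Mbp and Cdh5. The share of all protein-coding genes was 16.9%, so the count of 2 of 10 is close to it. Islands measure occupancy, not expression, so these counts do not measure the cell types in the sample.

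An island lay within 5 kb of 15 of the 30 subunit genes (50%), against 16.9% of all protein-coding genes (3657 of 21631). The 15 were the genes of both ATPases (Smarca4 and Smarca2), of 5 core subunits (Smarcb1, Smarcc2, Smarcd1, Smarcd2 and Smarce1), of the BAF subunits Arid1a and Arid1b, of the PBAF subunit Arid2 and of the non-canonical subunit Bicral. The others were Bcl7a and Bcl7b, Bcl11a, and Dpf3, a neuronal subunit. They carried 22 distinct islands, since 4 genes had more than 1. The remaining 15 genes had none, and their nearest islands lay between 12.0 kb (Brd7) and 652 kb (Ss18) away. The genes just inside the limit of 5 kb and just outside it were far apart, with Smarcd1 at 1175 bp and Brd7 at 11993 bp. The median distance to the nearest island was 6.59 kb for the subunit genes and 125 kb for all protein-coding genes. The nearest island lay within 50 kb of 18 of the subunit genes (60.0%), against 33.1% of all genes. No test was made of these counts, because the genes were chosen with earlier results of these data known.

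**Figure D1:**
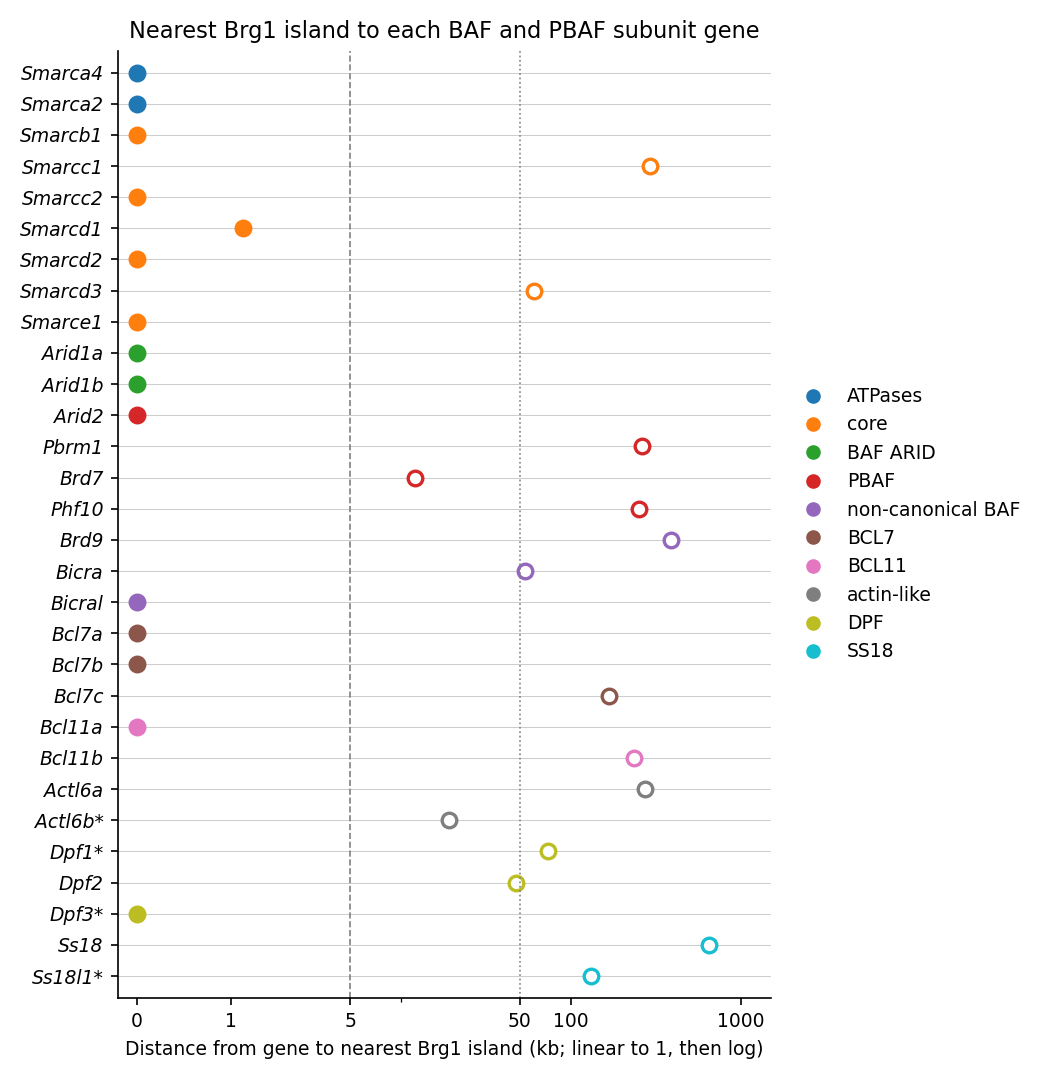
Distance from each of the 30 subunit genes to its nearest Brg1 island, in kb on an axis that is linear up to 1 kb and logarithmic beyond, with colours for the type of subunit and asterisks for the 4 neuronal subunits. Filled points are the 15 genes with an island within 5 kb (dashed line), open points the 15 without, and the dotted line marks 50 kb; 14 of the filled points lie at 0 because the island overlaps the gene, and the other is Smarcd1.

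Longer genes had islands more often, among the subunit genes and among all genes. The median length of the subunit genes was 32.1 kb, against 17.3 kb for all protein-coding genes. Under 20 kb, 3 of 8 subunit genes (37.5%) had an island within 5 kb, against 10.4% of all genes of that length. From 20 to 50 kb the counts were 4 of 9 (44.4%) against 16.8%, from 50 to 100 kb 4 of 7 (57.1%) against 24.9%, and over 100 kb 4 of 6 (66.7%) against 39.9%. The share was thus higher in the subunit genes in all 4 length classes, each of which rests on 9 subunit genes or fewer.

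**Figure D2:**
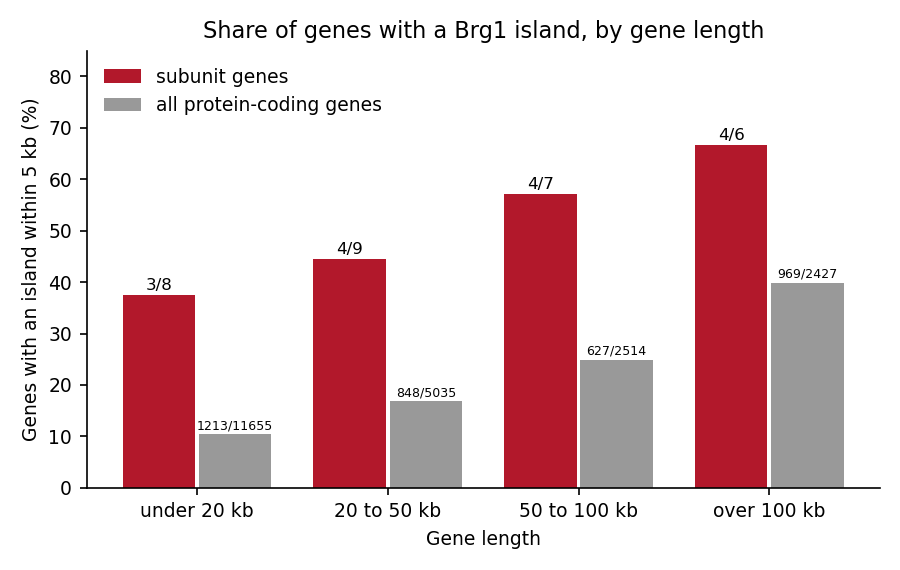
Share of genes with a Brg1 island within 5 kb, in percent, for the 30 subunit genes and for all protein-coding genes in 4 classes of gene length; the numbers above the bars are genes with an island over genes in the class. The subunit genes stand at 37.5% to 66.7% and all genes at 10.4% to 39.9%, and both shares are higher in longer genes.

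Both ATPase genes had an island over the listed transcription start. Among all protein-coding genes with a listed start, 9.53% had an island within 1 kb of it. So few ATPase genes carry no result about ATPases as a class. Smarca4, which encodes Brg1 itself, had 1 island of 54 reads (95% interval 40.6 to 70.5) at chr9:21615357-21617156. It reached from 812 bp upstream to 987 bp downstream of the start. Smarca2, which encodes Brm, had an island of 93 reads (75.1 to 114) at chr19:26604711-26608110, which reached 449 bp upstream and 2950 bp downstream. The intervals of these islands do not overlap, but the Smarca2 island was 3400 bp wide and the Smarca4 island 1800 bp, and the read density was 5.47 reads per 200 bp at Smarca2 and 6.0 at Smarca4. Among islands of its own width, the Smarca4 island stood at percentile 18.4 and the Smarca2 island at 43.7. Smarca2 had another island, of 83 reads (66.1 to 103), inside the gene and 141951 bp downstream of the start (chr19:26747111-26749510), at percentile 90.8 among islands of its width. The 300 bases around each ATPase start, which lie wholly within the islands, are shown first because the antibody recognises the products of these genes (RefSeq, GRCm38.p6, 5′ to 3′ on the gene's strand; capitals mark matches to the motifs described with the other starts).
Smarca4 (chr9:21615919-21616218, + strand): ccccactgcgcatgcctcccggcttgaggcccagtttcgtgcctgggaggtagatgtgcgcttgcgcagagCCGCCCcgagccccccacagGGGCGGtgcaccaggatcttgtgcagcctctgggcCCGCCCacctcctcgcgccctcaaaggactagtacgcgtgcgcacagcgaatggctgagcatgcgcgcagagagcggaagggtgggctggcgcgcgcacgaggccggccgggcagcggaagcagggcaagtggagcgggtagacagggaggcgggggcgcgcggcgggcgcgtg
Smarca2 (chr19:26604910-26605209, + strand): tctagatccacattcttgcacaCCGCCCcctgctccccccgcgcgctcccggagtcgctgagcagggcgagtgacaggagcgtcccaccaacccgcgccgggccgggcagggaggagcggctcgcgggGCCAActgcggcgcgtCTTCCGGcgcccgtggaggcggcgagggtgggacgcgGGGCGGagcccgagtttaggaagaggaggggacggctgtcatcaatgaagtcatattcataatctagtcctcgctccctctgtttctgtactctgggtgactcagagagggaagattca

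Of the 7 core subunit genes, 5 had an island within 5 kb, against 16.9% of all protein-coding genes, and the paralogues Smarcc1 and Smarcc2 differed. Smarcc2, which encodes a scaffold subunit, had an island at chr10:128458345-128461144 with 78 reads (61.7 to 97.3), from 891 bp upstream to 1908 bp downstream of its start. Smarcc1, its paralogue, had none within 50 kb, and the nearest lay 290 kb away. The windows around the starts of this pair are shown because they differ in islands and in motifs: the E-box letters CAGATG, read as CATCTG, the ETS letters CCGGAAG and the nuclear factor I letters TTGGC are present only at Smarcc1 of these paralogues.
Smarcc2 (chr10:128458986-128459285, + strand): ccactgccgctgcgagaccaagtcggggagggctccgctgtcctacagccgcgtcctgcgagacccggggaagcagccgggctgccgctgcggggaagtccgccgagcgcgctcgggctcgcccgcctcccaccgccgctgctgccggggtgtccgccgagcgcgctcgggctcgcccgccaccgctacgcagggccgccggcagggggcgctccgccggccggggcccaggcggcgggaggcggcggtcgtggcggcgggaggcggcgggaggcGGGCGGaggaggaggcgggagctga
Smarcc1 (chr9:110131774-110132073, + strand): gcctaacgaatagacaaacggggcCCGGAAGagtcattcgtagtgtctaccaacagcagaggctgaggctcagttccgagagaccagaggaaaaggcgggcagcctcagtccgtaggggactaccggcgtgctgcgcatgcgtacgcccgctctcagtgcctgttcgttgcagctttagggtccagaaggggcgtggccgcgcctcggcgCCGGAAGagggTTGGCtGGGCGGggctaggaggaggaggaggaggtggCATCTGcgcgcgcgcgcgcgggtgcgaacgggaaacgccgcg

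Smarcb1, a core subunit whose loss drives rhabdoid tumours, had an island of 81 reads (64.3 to 101) centred 58.5 bp downstream of its start (chr10:75920456-75922655). Its density, 7.36 reads per 200 bp, put it at percentile 92.7 among islands of the same width, and it also lay within 1 kb of Mmp11. Smarce1, which encodes an HMG-box subunit, had an island at chr11:99229287-99231886 with 84 reads (67.0 to 104), across the higher-coordinate end of the gene and within 1 kb of Krt222. At the Smarcd genes, whose products link the complex to transcription factors, the islands were shared with neighbours. The island of Smarcd2, of 62 reads (47.5 to 79.5), lay across the upstream end of the gene and overlapped Tcam1 (chr11:106271887-106274086), with its near edge 4255 bp upstream of the listed start. The island of Smarcd1, of 83 reads (66.1 to 103), lay 1175 bp beyond the downstream end and overlapped Gpd1 (chr15:99715170-99718169). Smarcd3 had none within 50 kb, with the nearest 60.3 kb away.

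The genes of the large ARID subunits, which contact DNA and distinguish BAF from PBAF, all had an island within 5 kb. The share of all protein-coding genes was 16.9%, and it was higher in long genes. It was 39.9% over 100 kb, where Arid1b and Arid2 (118 kb) fall, and 24.9% from 50 to 100 kb, where Arid1a (77.8 kb) falls. So few genes carry no result about ARID subunits as a class. Arid1b had 5 islands, the most of any subunit gene. An island of 66 reads (51.0 to 84.0) ended 274 bp upstream of its listed start (chr17:4993201-4994800), and another, of 65 reads (50.2 to 82.8), ended 2874 bp upstream (chr17:4989401-4992200). These neighbours differed in density, since the nearer one had 8.25 reads per 200 bp and stood at percentile 92.9 among islands of its width, and the farther one had 4.64 and stood at percentile 3.36. The other 3 islands lay inside the gene, between 186127 and 291127 bp from the start, with 79, 58 and 56 reads. Arid1b is also the longest of the 30 genes, at 353 kb, and 4 of its islands overlap it. Arid1a had an island of 69 reads (53.7 to 87.3) over its start (chr4:133756086-133758485) and another of 78 reads (61.7 to 97.3) inside the gene, 22900 bp downstream of the nearer listed start (chr4:133728686-133731085), so the interior island held no fewer reads than the one at the start.

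Among the 4 genes specific to PBAF (Arid2, Pbrm1, Brd7 and Phf10), only Arid2 had an island within 5 kb. The share of all protein-coding genes was 16.9%, from which 1 of 4 genes cannot be told. The Arid2 island held 129 reads (108 to 153), the second most among the 22 islands, and lay across the lower-coordinate end of Arid2 (chr15:96283570-96287569). Arid2 begins at 96287522, so nearly all of the 4000 bp of this island lay outside the gene. It also overlapped the predicted gene Gm38469, and Arid2 was not counted when islands within 1 kb of another gene were left out. Pbrm1, which encodes the polybromo subunit, and Phf10 had none within 50 kb, with nearest islands at 262 and 250 kb. Brd7, a bromodomain subunit, had an island 12.0 kb away, of 62 reads (47.5 to 79.5), which overlapped Adcy7. Of the 3 genes of non-canonical BAF, Bicral had the island with the most reads of any subunit gene, 186 (160 to 215) over 5800 bp (chr17:46853252-46859051), which ranked 89 of 5727 in the list. It lay in the interior, between 55136 bp from the lower-coordinate end and 31391 bp from the higher-coordinate end of Bicral. Its density of 6.41 reads per 200 bp was close to the list median of 6.27, and it stood at percentile 81.2 among the 24 islands of its width. Its paralogue Bicra had its nearest island 53.9 kb away, just beyond the limit of 50 kb, and Brd9, the bromodomain subunit of this complex, 388 kb away.

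Islands at the genes of accessory subunits also differed between paralogues. Bcl7a had an island with 113 reads (93.1 to 136) that crossed its lower-coordinate end (chr5:123343592-123347391), and Bcl7b one of 51 reads (38 to 67.1) centred 41.5 bp upstream of its start (chr5:135167531-135169130), the fewest reads of the 22. Bcl7c had none within 50 kb. Bcl11a, a zinc-finger gene of neural and blood development, had an island of 126 reads (105 to 150) from 1494 bp upstream to 3305 bp downstream of its listed start (chr11:24079201-24084000). Another, of 61 reads (46.7 to 78.4), ended 2295 bp upstream of that start and crossed the end of the annotated gene (chr11:24076201-24078400). Bcl11b, its paralogue, had none within 50 kb, with the nearest at 236 kb.

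**Figure D3:**
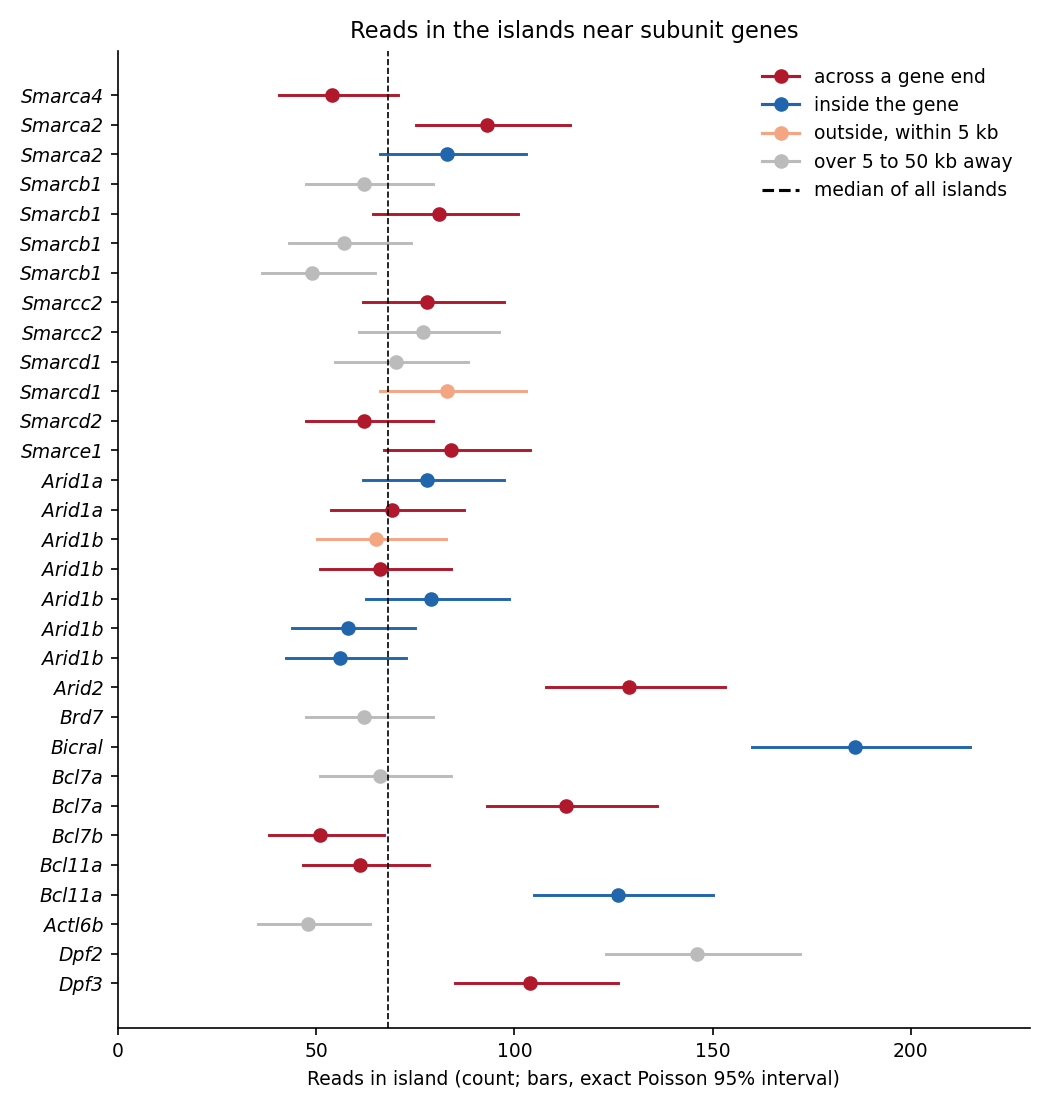
Reads in each island within 50 kb of a subunit gene, with exact Poisson 95% intervals, coloured by position relative to the gene; the dashed line is the median of 68 reads over all 5727 islands. Above 100 reads stand the islands of Bicral, Arid2 and Dpf3, the larger Bcl11a island, the Bcl7a island across the gene end and a distal island 47.7 kb from Dpf2. The others lie between 48 and 93.

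Of the 4 neuronal subunit genes, Dpf3 alone had an island within 5 kb, and of their 4 progenitor counterparts (Actl6a, Dpf2, Phf10 and Ss18) none did. Among the other 22 subunit genes 14 had one, and 16.9% of all protein-coding genes did, a share that 1 of 4 and 0 of 4 genes cannot be told from. Dpf3, a double PHD finger subunit, had an island of 104 reads (85 to 126) over its start (chr12:83485251-83489050), from 1314 bp upstream to 2485 bp downstream, and ranked 727 in the list. Its density of 5.47 reads per 200 bp stood at percentile 44.4 among islands of its width. Dpf3 is also the longest of these 8 genes, at 274 kb, and its island lay at the start and not in its interior. Whether gene length bears on this was not tested. With 4 genes a side and 1 library, 1 of 4 and 0 of 4 do not show a difference between neuronal and progenitor subunits.

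The other neuronal subunit genes were farther from islands. Actl6b, which encodes the neuronal actin-like subunit, had its nearest island 19.2 kb away, of 48 reads (35.4 to 63.6), and that island overlapped Gnb2. Dpf1 had its nearest island 73.4 kb away and Ss18l1, which encodes the neuronal SS18 paralogue, 132 kb away. Among the progenitor counterparts, Dpf2 had an island 47.7 kb away, just inside the limit of 50 kb, with 146 reads (123 to 172). The protein-coding gene nearest to this island was Frmd8, at 2174 bp, and non-coding genes around it were not examined. The nearest islands were 250 kb away for Phf10, 273 kb for Actl6a and 652 kb for Ss18. Actl6b and Ss18l1 were nearer to an island than Actl6a and Ss18, whereas Dpf1 was farther from one than Dpf2. The distances of Ss18l1, Phf10, Actl6a and Ss18 exceed the median of 125 kb over all genes. The 4 neuronal starts are shown because they are the genes set against the progenitor subunits, and only the window of Dpf3 lies in an island.
Dpf3 (chr12:83487687-83487986, - strand): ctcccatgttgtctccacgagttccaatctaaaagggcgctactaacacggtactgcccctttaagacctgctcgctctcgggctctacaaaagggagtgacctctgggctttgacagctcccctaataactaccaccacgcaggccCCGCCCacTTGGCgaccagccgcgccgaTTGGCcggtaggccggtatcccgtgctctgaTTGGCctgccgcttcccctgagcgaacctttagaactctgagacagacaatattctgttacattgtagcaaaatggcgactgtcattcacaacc
Actl6b (chr5:137553296-137553595, + strand): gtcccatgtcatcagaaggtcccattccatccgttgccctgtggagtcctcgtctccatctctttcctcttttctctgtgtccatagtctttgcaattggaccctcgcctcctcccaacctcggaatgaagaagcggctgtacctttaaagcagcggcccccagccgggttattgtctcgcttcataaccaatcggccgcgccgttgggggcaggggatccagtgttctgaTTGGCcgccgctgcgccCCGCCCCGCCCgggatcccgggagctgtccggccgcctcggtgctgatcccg
Dpf1 (chr7:29303755-29304054, + strand): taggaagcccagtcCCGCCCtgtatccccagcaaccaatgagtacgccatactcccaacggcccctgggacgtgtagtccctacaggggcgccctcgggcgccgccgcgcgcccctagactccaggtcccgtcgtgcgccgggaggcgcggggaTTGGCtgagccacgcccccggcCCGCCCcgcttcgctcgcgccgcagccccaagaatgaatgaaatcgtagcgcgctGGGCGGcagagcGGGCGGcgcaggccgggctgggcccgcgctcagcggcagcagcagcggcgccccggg
Ss18l1 (chr2:180042233-180042532, + strand): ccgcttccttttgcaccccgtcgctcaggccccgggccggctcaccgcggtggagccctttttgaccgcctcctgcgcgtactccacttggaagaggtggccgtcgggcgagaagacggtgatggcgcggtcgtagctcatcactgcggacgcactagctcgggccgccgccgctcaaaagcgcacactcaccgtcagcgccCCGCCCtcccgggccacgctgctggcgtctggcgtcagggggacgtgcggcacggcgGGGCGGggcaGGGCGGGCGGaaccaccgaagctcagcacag

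A transcription start was listed for 24 of the 30 subunit genes, and 9 of these (37.5%) had an island within 1 kb of it, against 9.53% of the 17274 protein-coding genes with a listed start. In 8 of the 9 the island covered the start, and Arid1b was the exception. The Arid1b island crossed the upstream end of the annotated gene but ended before the listed start. The 9 islands reached between 449 bp (Smarca2) and 1873 bp (Arid1b) upstream. Of the 22 islands near subunit genes, 13 crossed an end of the annotated gene, 7 lay inside and 2 lay outside. The larger Bcl11a island is counted as inside because the annotated gene extends upstream of the listed start, which that island covered. In the interior were both the island with the most reads, at Bicral, and small ones such as those of Arid1b. The 22 islands were ordinary in strength: the median was 78.5 reads, against 68 for the list, and 14 of 22 were at or above the list median. Density was 5.97 reads per 200 bp at the median, against 6.27 for the list, and the median percentile among islands of the same width was 45.8.

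**Figure D4:**
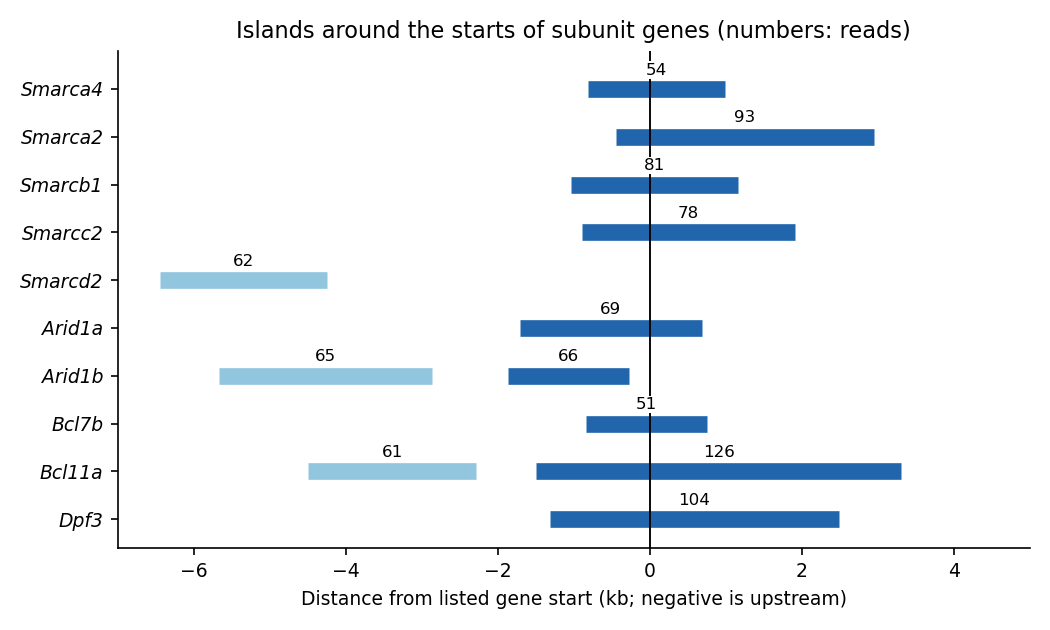
Extent of each island with an edge within 5 kb of the listed start of a subunit gene, in kb from the start on the gene's strand, with the number of reads above it. Dark bars are islands within 1 kb of the start and light bars those farther away. Of the 9 dark bars, 8 cover the start, and that of Arid1b ends 274 bp upstream, inside the annotated gene.

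The start windows of the subunit genes were rich in CpG dinucleotides whether or not they had an island. Each window runs from 250 bases before to 50 bases after the start. The median was 29 CpG (range 17 to 48) in the 9 windows with an island within 1 kb and 35 (4 to 62) in the 15 without, against 14 in all 17274 windows. Above that overall median, 9 of 22 subunit windows (40.9%) had an island within 1 kb, against 15.6% of all genes in that class, and at or below it 0 of 2 had one, against 3.98%. The Dpf3 window had the fewest CpG of the 9 with an island, 17, while Dpf1 and Ss18l1, with no island, had 39 each and Actl6b had 23.

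The following 6 motifs, counted on either strand, were searched in the 24 windows: CAGATG and CAGCTG (E-boxes of bHLH factors such as Atoh1 and Neurod1), GACCACCCA (Gli), TTGGC (the core of the nuclear factor I site), CCGGAAG (ETS) and GGGCGG (Sp factors). GGGCGG was found in 22 of 24 subunit windows, among them all 9 with an island and 13 of 15 without, against 46.9% of all windows. These letters contain a CpG, and the subunit windows were richer in CpG than all windows. A comparison with windows of like CpG count was not made. TTGGC was found in 10 of 24, 3 of 9 with an island (Smarca2, Arid1a and Dpf3) and 7 of 15 without, against 48.6% of all windows. CAGCTG was found at Smarcd1, Smarcd3, Phf10 and Bcl7c and CAGATG at Smarcc1, all without an island within 1 kb, and in none of the 9 windows with one; they were present in 15.2% and 14.7% of all windows. CCGGAAG was found at Smarca2, Smarcc1 and Brd9, against 12.1% of all windows. GACCACCCA was found in no subunit window, against 0.179% of all windows. A match is a run of letters, not a bound site, and the windows are much shorter than the islands.

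Distal islands were about as common around the subunit genes as around all genes. An island over 5 and up to 50 kb away was found for 7 of 30 (23.3%), against 22.1% of all protein-coding genes. These were 9 islands, of which 3 belonged to the surroundings of Smarcb1. All 9 lay nearer to another protein-coding gene than to the subunit gene, and 5 overlapped one. Another 2 lay over 5 kb from every protein-coding gene, 22.5 kb from Smarcb1 and 37.1 kb from Smarcd1. The Smarcb1 islands held 62, 57 and 49 reads, the last pair at or near Vpreb3. Distal islands of 77 reads near Smarcc2 (33.8 kb, in Esyt1), 70 near Smarcd1 and 66 near Bcl7a (41.5 kb, in Wdr66) completed the set with those of Brd7, Actl6b and Dpf2.

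Genes of other ATP-dependent remodelling complexes gave a comparison within chromatin regulators. An island within 5 kb was found for 15 of 30 BAF and PBAF genes (50%), for 6 of 9 CHD genes (66.7%), for 6 of 13 ISWI genes (46.2%), and for 4 of 20 INO80 and SRCAP genes (20%), against 16.9% of all protein-coding genes. The INO80 and SRCAP share was thus close to that of all genes. Reads given for these lists are those of each gene's strongest island within 5 kb, not totals, since some genes had several islands. By that value the highest CHD genes were Chd7, a remodeller of neural development, with 181 (156 to 209), Chd2 with 116 (95.9 to 139) and Chd9 with 83 (66.1 to 103). In the ISWI list they were Baz2b with 83, Rsf1 with 81 and Baz1b with 73, and in the INO80 and SRCAP list Ino80d with 96, Ep400 with 70 and Ino80e with 54. The share in BAF and PBAF genes thus lay between those of the CHD and the INO80 and SRCAP genes and near that of the ISWI genes, but no difference between the lists was tested. The lists were also not matched for gene length. Among all genes the share rose from 10.4% under 20 kb to 39.9% over 100 kb, and whether length bears on the order of the lists was not tested.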

How the data were processed

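Brg1 ChIP-seq of mouse medulloblastoma gave 1 deposited island list. SICER 1.1, Bowtie 0.12.7 and Picard 1.127 appear in the submitters' processing notes, as do mm10 and mm9, without their roles. How the caller was set and whether the input was used is not given in the sources used here. Without a header, the deposited list gives a whole number per island, taken from its values as the authors' read count, not scaled for depth or width. Coordinates are given 1-based on mm10: as deposited, 1861 islands had a protein-coding gene end at most 1 kb away, and 501 to 575 when moved by 50 to 200 kb.

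Distances run from any base of an island to the RefSeq gene extent (GRCm38.p6), or to starts listed in the RefSeq start windows; genes without a listed start were named by coordinate ends. Neighbouring genes were sought among protein-coding genes only. Read percentiles were taken among islands of equal width. The interval arithmetic was tested on simulated data. Counts are descriptive and carry no p-value, and all 30 genes were accounted for. Of the other remodeller lists, the 3 genes whose strongest island held the most reads are named. The genes and lists were chosen with earlier results of these data known, and the motifs after the islands had been seen. Alternatives covered windows, read and width filters, midpoints, assignment and background genes. Python 3.11.15, pandas 2.3.3, numpy 2.4.6 and scipy 1.17.1 were used.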

Additional observations from a re-analysis of the deposited data

How the results depend on the processing

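Of 56 alternative values, 42 stayed within 1.5 times the reported count, or within its counting interval for the background share, and 14 did not. The count of subunit genes with an island within 5 kb stayed between 10 and 15 under 10 of 11 alternatives and was 6 with the 1464 islands of highest read count (5.21% of all genes). It was 10 when islands within 1 kb of another gene were left out, an alternative chosen after seeing the data, as were the ones using gene ends only. With the highest-count islands, 3 genes had one at the start (2.66% of all genes), 1 a distal one (6.75%) and 5 of the 22 other members one within 5 kb. Dpf3 kept its island under every alternative run for the neuronal genes. Including islands up to 50 kb away gave 2 of 4 neuronal and 1 of 4 progenitor genes, near the 33.1% of all genes, and leaving out islands near another gene gave 9 of the 22 others (12.5% of all genes). The distal count moved along with the share of all genes: it was 3 with islands at or above the median count (12.3% of all genes), 2 up to 20 kb (8.77%), 15 up to 100 kb (37.9%) and 0 when each island counted for its nearest gene only (2.94%). The INO80 and SRCAP count was 2 with islands at or above the median (9.66% of all genes). The background share of 16.9% was 11.3% over all annotated genes and 20.4% over genes of the members' length range. These changes follow from using fewer islands, other windows or other genes. No paired analysis was possible because there was 1 ChIP library. Without a second ChIP library, none of these counts has an error between animals, and islands below the caller's threshold are not seen.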

Other observations

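Actb, which encodes the beta-actin that is also a subunit of BAF complexes and was not among the 30 genes, had 1 island, of 217 reads (exact Poisson 95% interval 189 to 248; chr5:142902522-142908321). This was more than the 186 reads of Bicral, the highest of the 30. Actb is a highly expressed gene in most cells, and its island is given as a value only.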
